A study of Mus musculus with 12 samples.

Results

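Lipogenesis and lipid droplet genes are the genes whose products make fatty acids from sugar-derived carbon, lengthen and desaturate them, join them to glycerol as triglyceride, and coat or break down the droplets in which triglyceride is kept. A list of 35 such genes was taken by symbol from the 23420 genes counted in each of 12 RNA sequencing libraries of whole mouse liver, and all 35 were present in the count tables. They were grouped by role into 8 genes of acetyl-CoA supply and fatty acid synthesis, 7 of elongation and desaturation, 8 of glycerolipid assembly, 2 transcription factors, and 10 lipid droplet proteins and lipases. The livers came from C57BL/6 mice in 6 groups of 2 libraries, and every group carried floxed alleles of Gdown1, the RNA polymerase II binding protein encoded by Polr2m. In the first experiment, FF livers (Gdown1 flox/flox) kept Gdown1 and KO livers (Gdown1 flox/flox with Alb-Cre) lost it in the cells where the albumin promoter drives Cre, which are hepatocytes; both were 7 weeks old. In the second, p53KO livers (Gdown1 flox/flox, p53-/-) and DKO livers (the same with Alb-Cre) were 8 weeks old and lacked p53 throughout. In the third, p53KO TAM livers and DKO TAM livers, again p53-/-, were taken 24 hours after tamoxifen, which switches on the inducible Alb-CreERT2 of the DKO TAM group; their age was not in the labels, which list no Cre allele for the p53KO TAM group. Cre, tamoxifen-activated or not, was present wherever Gdown1 was deleted, so effects of Cre and of Gdown1 loss cannot be told apart. Nothing in the labels says whether the 2 libraries of a group came from separate animals, and p-values measure the spread between such libraries.

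As background, the liver turns surplus carbohydrate into fat. Citrate carried out of mitochondria is cleaved to acetyl-CoA, carboxylated to malonyl-CoA and built into palmitate by fatty acid synthase; palmitate is then elongated and desaturated, and acyl chains are esterified to glycerol phosphate. The transcription factors SREBP-1c, from Srebf1, and ChREBP, from Mlxipl, switch these enzymes on after feeding in answer to insulin and to sugar. Triglyceride is stored in droplets coated by perilipins and CIDE proteins, from which lipases release it.

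Promoter sequences are shown for 8 members because the results turn on sets that moved together: the 6 with a window among the 8 members that were lower in all 3 experiments (Acacb, Acss2, Thrsp, Gpam, Srebf1 and Acly), the transcription factor gene Mlxipl, and Plin2, a droplet gene that went the other way in DKO livers. Each is the 250 bases before a transcription start, 5′ to 3′ on the gene's strand, from RefSeq on GRCm38.p6. The windows lie at chr5:114165268-114165517 on the plus strand (Acacb), chr2:155517793-155518042 on the plus strand (Acss2), chr7:97417551-97417800 on the minus strand (Thrsp), chr19:55127239-55127488 on the minus strand (Gpam, the more upstream of its starts), chr19:55099478-55099727 on the minus strand (Gpam, its other start), chr11:100528001-100528250 on the minus strand (Acly), chr11:60210472-60210721 on the minus strand (Srebf1, a start inside the gene and 1 of its 3 windows), chr5:135089640-135089889 on the plus strand (Mlxipl, 1 of its 2 windows) and chr4:86670060-86670309 on the minus strand (Plin2). Capitals mark the motifs found: a CCAAT box or its reverse complement, an E-box (CACGTG) or a TATA box (TATAAA). The windows of Acly and of the other Gpam start hold none of the motifs searched. Of the Srebf1 windows not printed, 1 holds a CCAAT box and 1 no motif.
Acacb: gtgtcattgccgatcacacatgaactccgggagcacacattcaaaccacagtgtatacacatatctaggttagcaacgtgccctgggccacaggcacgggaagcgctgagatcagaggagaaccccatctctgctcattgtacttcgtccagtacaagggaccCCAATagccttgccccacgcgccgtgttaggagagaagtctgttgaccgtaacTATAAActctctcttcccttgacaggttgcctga
Acss2: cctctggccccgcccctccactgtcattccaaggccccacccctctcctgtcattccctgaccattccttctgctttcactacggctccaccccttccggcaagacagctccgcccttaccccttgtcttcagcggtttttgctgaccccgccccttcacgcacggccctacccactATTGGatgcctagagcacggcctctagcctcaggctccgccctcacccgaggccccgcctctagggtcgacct
Thrsp: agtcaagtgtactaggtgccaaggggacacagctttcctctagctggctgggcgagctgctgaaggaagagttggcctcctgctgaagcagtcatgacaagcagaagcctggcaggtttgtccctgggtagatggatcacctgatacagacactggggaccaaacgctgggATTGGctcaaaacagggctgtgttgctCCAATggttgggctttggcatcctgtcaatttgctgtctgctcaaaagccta
Gpam, upstream start: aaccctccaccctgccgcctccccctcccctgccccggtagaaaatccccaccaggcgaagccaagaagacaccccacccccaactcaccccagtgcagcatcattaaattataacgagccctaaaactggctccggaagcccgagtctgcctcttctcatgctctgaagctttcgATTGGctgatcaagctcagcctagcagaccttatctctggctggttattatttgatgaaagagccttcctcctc
Gpam, other start: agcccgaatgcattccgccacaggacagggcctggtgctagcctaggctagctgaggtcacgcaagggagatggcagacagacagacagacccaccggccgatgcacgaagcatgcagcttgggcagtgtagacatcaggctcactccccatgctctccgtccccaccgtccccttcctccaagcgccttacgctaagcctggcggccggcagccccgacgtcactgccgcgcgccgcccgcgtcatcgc
Acly: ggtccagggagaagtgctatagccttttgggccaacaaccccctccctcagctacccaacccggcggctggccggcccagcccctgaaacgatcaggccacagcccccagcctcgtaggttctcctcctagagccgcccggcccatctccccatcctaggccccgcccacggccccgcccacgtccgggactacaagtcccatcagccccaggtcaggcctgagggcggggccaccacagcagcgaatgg
Srebf1: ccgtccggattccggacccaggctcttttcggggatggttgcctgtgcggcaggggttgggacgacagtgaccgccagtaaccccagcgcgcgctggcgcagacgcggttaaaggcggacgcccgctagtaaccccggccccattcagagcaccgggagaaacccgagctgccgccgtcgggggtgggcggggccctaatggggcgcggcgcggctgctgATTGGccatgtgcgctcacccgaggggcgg
Mlxipl: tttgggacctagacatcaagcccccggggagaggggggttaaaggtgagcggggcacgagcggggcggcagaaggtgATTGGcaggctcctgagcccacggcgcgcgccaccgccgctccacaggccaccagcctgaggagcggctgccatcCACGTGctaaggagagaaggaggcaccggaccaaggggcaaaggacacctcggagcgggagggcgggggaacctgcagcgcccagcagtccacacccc
Plin2: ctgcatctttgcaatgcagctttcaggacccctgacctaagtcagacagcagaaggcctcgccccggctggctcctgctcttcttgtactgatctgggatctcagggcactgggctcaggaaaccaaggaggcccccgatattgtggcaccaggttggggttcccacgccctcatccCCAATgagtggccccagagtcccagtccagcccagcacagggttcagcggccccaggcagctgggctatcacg

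The CCAAT box was searched on both strands in the 250 bases before the starts of 27025 genes and was found for 37.5% of them. It was found for 15 of the 29 members with a window. Among those lower in all 3 experiments it was found for 5 of the 6 with a window, Acly being the one without it. A gene was counted if any of its windows held the box. For Gpam and Srebf1, the window next to the start of the counted gene held none. The box was found for 2 of the 7 with a window among the members higher in at least 1 experiment and lower in none, Plin2 and Plin5. The E-box CACGTG, to which ChREBP and the USF proteins can bind, was found for 6.86% of all genes and for 4 members, Elovl5, Lpin2, Mlxipl and Slc25a1. The sterol response element TCACNCCAC was found for 1.22% of all genes and for Mlxipl alone among the members, at a start other than the one printed. TATAAA was found for 14.3% of all genes and for Acacb and Cideb, and the nuclear receptor element known as direct repeat 1 for 0.0407% and no member. None of these motifs contains another, though matches side by side can share end bases. Such matches describe letters in these windows and no more.

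Library totals ranged from 4939408 to 8776369 counts. Of the 23420 genes, 13693 passed the filter on low counts and were tested, among them 34 of the 35 members; Cidea did not pass. Levels below are CPM (counts scaled to a common library size) by TMM, a method that takes most genes as unchanged, and fold changes come from edgeR's quasi-likelihood test with Benjamini-Hochberg adjustment over all 13693 genes; a gene is said to have risen or fallen where its adjusted p was under 0.05. Polr2m stood at 96.7 to 100.3 CPM in FF and 59.4 to 64.7 in KO livers, at 89.1 to 102.7 in p53KO and 58.1 to 60 in DKO livers, and at 75.9 to 78.7 in p53KO TAM and 54.6 to 65.9 in DKO TAM livers. It fell in KO (log2 fold change -0.67, adjusted p = 0.0024, edgeR) and DKO livers (-0.70, adjusted p = 2.4e-04, edgeR), though its DKO value was 0.07 with library totals alone, and did not pass in DKO TAM livers (-0.36, adjusted p = 0.063, edgeR). Trp53 stood at 7.94 to 13.1 CPM in FF and 17.1 to 22.5 in KO livers but was counted in the p53-/- libraries too, at 2.79 to 3.97 CPM in p53KO and p53KO TAM and 8.13 to 10 in DKO and DKO TAM livers; gene counts do not show which exons the reads came from. Hepatocyte markers were present in every library, and of the 7 listed 4 fell in KO, all 7 in DKO and 4 in DKO TAM livers. Of all tested genes 7.88%, 25.7% and 10.1% fell. The markers' summed level was 107691.2 to 124710.1 CPM in the control libraries and 60448.4 to 70181.8 in KO livers. That level was 35132.6 to 37299.9 CPM in DKO and 44536.4 to 48700.9 in DKO TAM livers. In whole liver, fewer cells of a type and less RNA per cell cannot be told apart.

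The comparison of KO with FF livers asked what the loss of Gdown1 changes when p53 is intact. Of the 34 members tested, 9 fell and 2 rose, against a background of 7.88% of all tested genes that fell, 6.92% that rose and 14.8% called either way. The 26.5% of members that fell stood above the background, and the 5.88% that rose were near it. The median log2 fold change of the members was 0.05 and that of all genes 0.02, and members stood on both sides of zero. At least 2-fold falls were found for 5 members and a rise of that size for 1, against 2.74% and 3.13% of tested genes. Libraries of the 2 groups did not overlap for 12 lower and 12 higher of the 35 members, against 27.3% and 28.9% of tested genes. The 9 that fell were Acly, Acss2, Acacb, Thrsp, Scd1, Fads1, Gpam, Srebf1 and Cideb, by 1.47-fold (Acly) to 6.58-fold (Acacb); the 2 that rose were Scd2 (2.47-fold) and Fitm2 (1.8-fold). With library totals alone, 7 fell and 8 rose (all genes: 550 fell and 2744 rose, against 1079 and 947 with TMM), and the median of all genes moved by 0.26.

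The comparison of DKO with p53KO livers asked the same without p53. Here 19 members fell and 6 rose, where 25.7% of all tested genes fell, 25.7% rose and 51.4% were called. The 55.9% of members that fell stood above that background and the 17.6% that rose below it. Thrsp (22.8-fold) and Scd1 (22.1-fold) fell most, and Mogat1 and Cidec rose most. At least 2-fold falls were found for 15 members and rises of that size for 4, against 9.91% and 18% of tested genes. Groups did not overlap for 22 lower and 9 higher of the 35 members, against 37.3% and 39.7% of tested genes. The members' median was -0.62 against 0.01 for all genes. The scaling matters most in this comparison: with library totals alone the median of all genes moved by 0.77, 13 members fell and 15 rose, and the members' median was 0.15. All genes called then split into 959 lower and 8823 higher, and into 2435 and 4662 with upper quartile scaling, against 3525 and 3516 with TMM.

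The comparison of DKO TAM with p53KO TAM livers addressed the state 24 hours after tamoxifen. Of the 34 members 13 fell and 5 rose, where 10.1% of all tested genes fell, 8.61% rose and 18.7% were called. The 38.2% of members that fell stood above the background, led again by Thrsp (9.21-fold) and Scd1 (6.75-fold). At least 2-fold falls were found for 8 members and rises for 2, against 3.70% and 3.32% of tested genes, and groups did not overlap for 17 lower and 8 higher of the 35 members, against 29.3% and 30.2%. The members' median was -0.23 against 0.01 for all genes; with library totals alone 9 fell and 10 rose (all genes: 586 and 4346, against 1380 and 1179 with TMM), and the median of all genes moved by 0.35. Across the 3 experiments, which share no library, 8 members fell each time (Acly, Acss2, Acacb, Thrsp, Scd1, Fads1, Gpam and Srebf1), and 3.70% of tested genes did so. With library totals alone, Acly (adjusted p = 0.14, edgeR) and Fads1 (0.21) did not pass in KO livers and Gpam (0.35) not in DKO TAM livers, all 3 still below zero. No member rose in all 3, which 1.98% of tested genes did. Called in none were Me1, Elovl5, Fads2, Plin4 and G0s2, and 1 member, Agpat3, fell in one experiment and rose in another.

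**Figure D1:**
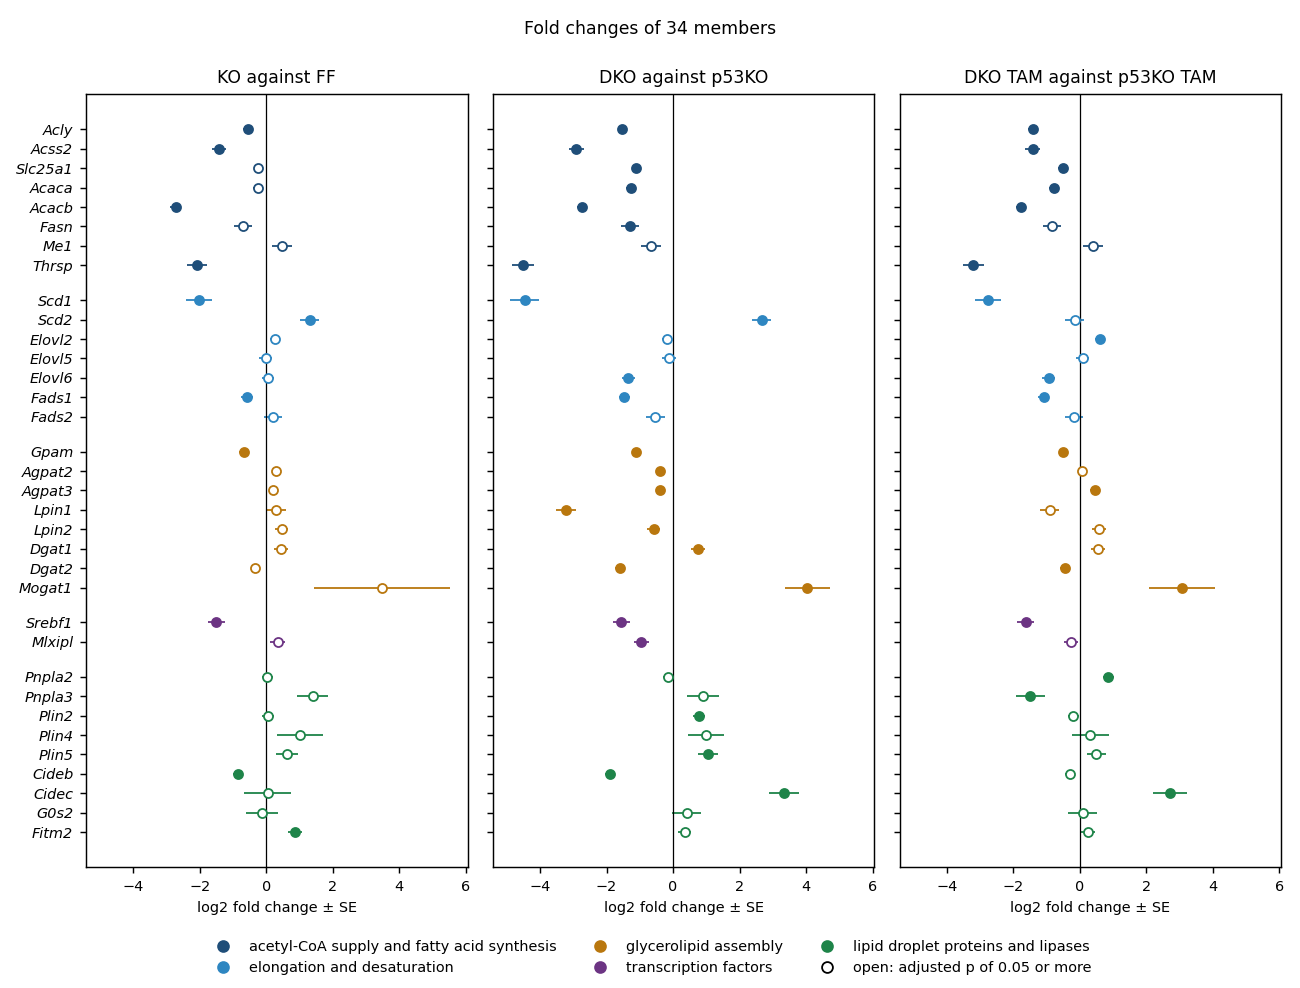
Log2 fold changes with standard errors of the 34 members tested, by role, in the 3 comparisons of deleted with control livers; filled points had an adjusted p under 0.05 in edgeR's quasi-likelihood test. Synthesis genes lie left of zero among the filled points of all 3 panels, while droplet genes lie on both sides.

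Among the 8 genes of acetyl-CoA supply and fatty acid synthesis, 4 fell in KO, 7 in DKO and 6 in DKO TAM livers, and none rose. Over all tested genes, 7.88%, 25.7% and 10.1% fell. The median log2 fold changes of the 8 synthesis genes were -0.62, -1.41 and -1.14. Those of the 7 hepatocyte markers were -0.50, -1.65 and -0.67, so in DKO livers the marker median was the lower one. The summed level of the 8 genes was 1410.6 to 1881.8 CPM in FF, 1039.8 to 1094.6 in KO, 1558.7 to 1794.3 in p53KO, 521.0 to 577.1 in DKO, 1166.5 to 1337.1 in p53KO TAM and 597.5 to 688.7 in DKO TAM livers.

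Acacb encodes acetyl-CoA carboxylase 2, whose malonyl-CoA at the mitochondrial surface restrains fatty acid oxidation. It stood at 117.5 and 105.7 CPM in FF and 19.5 and 14.2 in KO livers, at 99.4 and 122.5 in p53KO and 17.0 and 16.0 in DKO livers, and at 69.8 and 67.9 in p53KO TAM and 20.9 and 19.0 in DKO TAM livers. All 6 deleted libraries lay in a narrow band well below all 6 controls. The log2 fold change was -2.72 ± 0.16 (SE) in KO, -2.74 ± 0.15 in DKO and -1.78 ± 0.15 in DKO TAM livers (adjusted p = 3.9e-08, 9.6e-10 and 1.1e-06, edgeR's quasi-likelihood test). Acaca encodes acetyl-CoA carboxylase 1, the isozyme that feeds fatty acid synthesis in the cytosol. It stood at 177.8 and 138.0 CPM in FF and 124.9 and 140.7 in KO livers, at 141.5 and 162.4 in p53KO and 66.5 and 60 in DKO livers, and at 128.3 and 123.0 in p53KO TAM and 81.7 and 65.0 in DKO TAM livers. FF and KO libraries overlapped, and the other pairs of groups did not. Its log2 fold change was -0.25 ± 0.15 in KO livers (adjusted p = 0.29, edgeR), -1.26 ± 0.15 in DKO (3.2e-06) and -0.78 ± 0.15 in DKO TAM livers (0.0019).

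Thrsp encodes Spot 14, a thyroid hormone responsive protein tied to lipogenesis. It stood at 162.9 and 191.5 CPM in FF and 39.5 and 44.0 in KO livers, at 249.4 and 314.7 in p53KO and 14.7 and 10 in DKO livers, and at 139.4 and 162.4 in p53KO TAM and 22.2 and 10.1 in DKO TAM livers. The groups did not overlap in any experiment, and the DKO and DKO TAM libraries were the lowest of all. The fall was -2.09 ± 0.30 on the log2 scale in KO, -4.51 ± 0.33 in DKO and -3.20 ± 0.32 in DKO TAM livers (adjusted p = 0.0019, 3.4e-06 and 1.9e-04, edgeR), the last 2 being 22.8-fold and 9.21-fold.

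Acss2 encodes the cytosolic enzyme that makes acetyl-CoA from acetate. Its levels were 133.3 and 138.7 CPM in FF and 58.6 and 43.6 in KO livers, 124.5 and 139.4 in p53KO and 20 and 15 in DKO livers, and 60.3 and 41.3 in p53KO TAM and 22.3 and 15.8 in DKO TAM livers. Deleted libraries lay below their controls each time, and the p53KO TAM controls lay at the level of the KO livers. The log2 fold change was -1.41 ± 0.21 in KO, -2.91 ± 0.22 in DKO and -1.42 ± 0.22 in DKO TAM livers (adjusted p = 4.8e-04, 1.2e-07 and 6.1e-04, edgeR). Acss2 shares 113 exonic bases with 4930471I20Rik on the opposite strand, and reads were counted without regard to strand.

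Acly, the ATP citrate lyase that supplies cytosolic acetyl-CoA from citrate, stood at 337.1 and 297.8 CPM in FF and 234.5 and 195.7 in KO livers, at 298.4 and 273.1 in p53KO and 100.7 and 97.9 in DKO livers, and at 258.4 and 205.7 in p53KO TAM and 89.1 and 84.6 in DKO TAM livers. No groups overlapped, and the KO libraries lay closest to their controls. It fell by 0.56 ± 0.14 in KO, 1.52 ± 0.14 in DKO and 1.42 ± 0.14 in DKO TAM livers on the log2 scale (adjusted p = 0.012, 2.2e-07 and 4.6e-06, edgeR). The call in KO livers was lost without FF replicate 1 (adjusted p = 0.098) and without KO replicate 2 (0.12). Slc25a1, the mitochondrial citrate carrier, had values of 109.8 and 88.8 CPM in FF and 79.8 and 87.7 in KO livers, 93.4 and 98.9 in p53KO and 46.9 and 42.9 in DKO livers, and 68.8 and 53 in p53KO TAM and 43.0 and 42.4 in DKO TAM livers. The deleted libraries were lower in each experiment, by little in KO livers (log2 fold change -0.24 ± 0.14, adjusted p = 0.28, edgeR). Slc25a1 fell in DKO (-1.10 ± 0.14, 8.9e-06) and DKO TAM livers (-0.52 ± 0.15, 0.021); the latter call was lost without p53KO TAM replicate 1 (0.29), DKO TAM replicate 1 (0.071) or DKO TAM replicate 2 (0.096), and with library totals alone neither passed (0.056 and 0.40).

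Fasn, fatty acid synthase, stood at 644.0 and 317.3 CPM in FF and 311.9 and 284.9 in KO livers, at 382.6 and 451.7 in p53KO and 185.5 and 152.8 in DKO livers, and at 522.7 and 410.9 in p53KO TAM and 257.9 and 259.7 in DKO TAM livers. The deleted libraries were the lower ones each time, but the FF libraries differed between themselves, the second lying just above the KO libraries. Fasn fell in DKO livers (-1.30 ± 0.27, adjusted p = 0.0026, edgeR) and did not pass in KO (-0.69 ± 0.27, 0.13) or DKO TAM livers (-0.85 ± 0.27, 0.054). Without FF replicate 2 the KO value was -1.11 with an adjusted p of 0.0011 (edgeR), so 1 library decides that call, and DESeq2 also called Fasn in KO livers (0.031). In DKO TAM livers 5 alternatives, DESeq2 and limma-voom among them, called it (0.0019 to 0.050), while with library totals alone the DKO call was lost (-0.54, 0.14). Me1, the malic enzyme that yields NADPH for synthesis, ranged over 89.3 to 283.7 CPM and passed in no experiment (0.46 ± 0.30, -0.67 ± 0.30 and 0.40 ± 0.30 in KO, DKO and DKO TAM livers), though DESeq2 (0.025), limma-voom (0.043) and the fit of the 4 libraries compared (0.0052) called it lower in DKO livers.

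**Figure D2:**
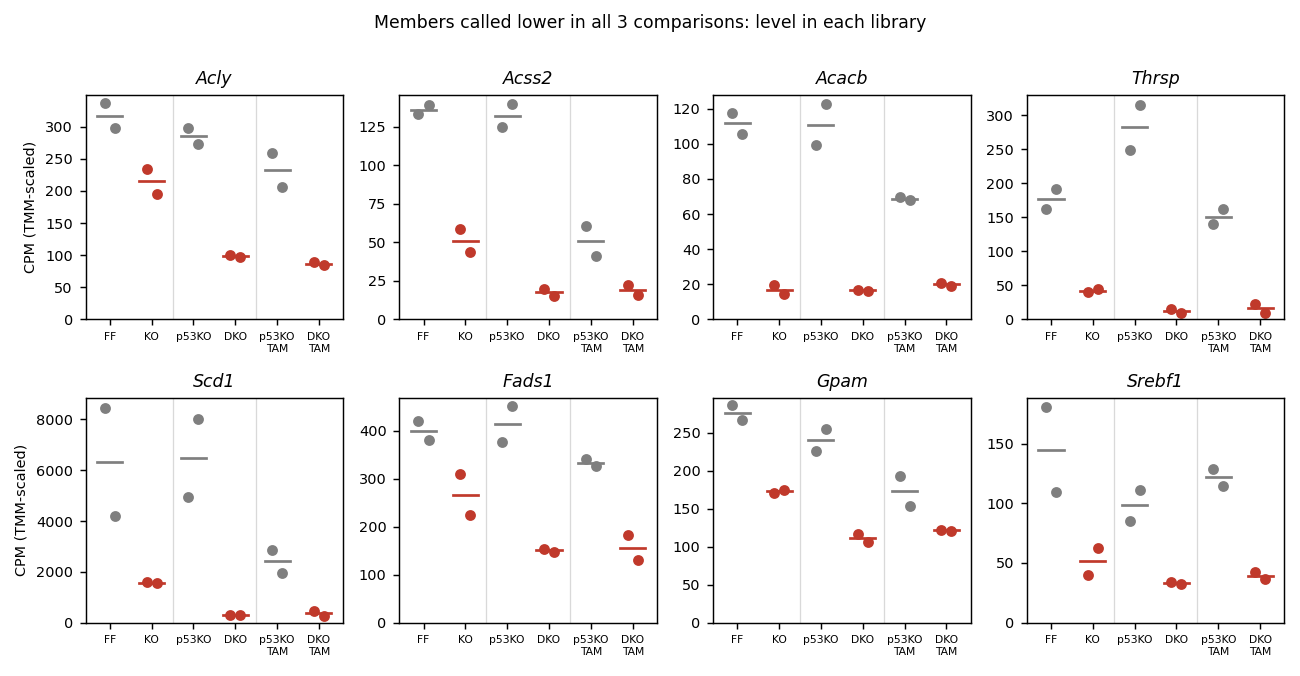
TMM-scaled CPM in each of the 12 libraries (points) and group means (bars) for the 8 members that fell in all 3 comparisons, with control groups in grey and deleted groups in red on linear axes. In all 8 panels each red group lies below the grey group to its left; Acacb stands at 14.2 to 20.9 in the 6 deleted libraries.

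Of the 7 genes of elongation and desaturation, 2 fell and 1 rose in KO livers. In each of the other experiments 3 fell and 1 rose. Called were 42.9%, 57.1% and 57.1% of them, against 14.8%, 51.4% and 18.7% of all tested genes, so the DKO share was near the background. Scd1, the stearoyl-CoA desaturase that makes oleate and palmitoleate, stood at 8439.6 and 4210.1 CPM in FF and 1588.7 and 1542.3 in KO livers, at 4928.8 and 8036.1 in p53KO and 292.7 and 295.2 in DKO livers, and at 2867.2 and 1952.5 in p53KO TAM and 444.5 and 269.0 in DKO TAM livers. The libraries of FF and of p53KO livers differed widely between replicates, yet no deleted library reached its controls. The log2 fold change was -2.01 ± 0.39 in KO, -4.46 ± 0.44 in DKO and -2.76 ± 0.40 in DKO TAM livers (adjusted p = 0.010, 3.5e-05 and 0.0022, edgeR). The KO call was lost when either KO library was left out (adjusted p = 0.072 without replicate 1 and 0.076 without replicate 2). Scd1 alone took 58.1% and 43.6% of the members' summed CPM in FF and 22.9% and 22.6% in KO livers, 41.9% and 49.3% in p53KO and 7.02% and 7.04% in DKO livers, and 37.7% and 30.1% in p53KO TAM and 9.28% and 6.91% in DKO TAM livers. Scd1 thus weighs on the summed CPM of all 35 members more in each control group than in its deleted group.

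Scd2, the isozyme best known from brain and from neonatal liver, lies 87.6 kb from Scd1 on chromosome 19 and went the other way. It stood at 11.5 and 11.1 CPM in FF and 36.3 and 19.2 in KO livers, at 5.98 and 8.58 in p53KO and 53.5 and 37.1 in DKO livers, and at 12.8 and 13.4 in p53KO TAM and 12 and 11.4 in DKO TAM livers. KO and DKO libraries lay above their controls, and DKO TAM libraries just below theirs. Scd2 rose in KO (1.31 ± 0.29, adjusted p = 0.0073, edgeR) and DKO livers (2.66 ± 0.29, 4.2e-06), and its value in DKO TAM livers was -0.16 ± 0.29 (0.75). The KO call was lost without FF replicate 2 (0.073) or KO replicate 1 (0.090). Scd1 and Scd2 are paralogs, so reads that fit both may have been lost or assigned to either. Per kilobase of exon, Scd1 stood at 1340.2 and Scd2 at 1.34 CPM in p53KO livers, against 60.8 and 8.31 in DKO livers.

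Fads1, the delta-5 desaturase of polyunsaturated fatty acids, had levels of 419.8 and 379.6 CPM in FF and 309.8 and 223.8 in KO livers, 375.8 and 451.9 in p53KO and 153.9 and 147.5 in DKO livers, and 340.2 and 326.7 in p53KO TAM and 181.9 and 130.6 in DKO TAM livers. It was lower without overlap in each experiment, with log2 fold changes of -0.58 ± 0.17, -1.46 ± 0.17 and -1.09 ± 0.17 (adjusted p = 0.031, 3.7e-06 and 4.1e-04, edgeR). In KO livers the Fads1 call rested on few libraries and was lost without FF replicate 1 (0.16), FF replicate 2 (0.075) or KO replicate 2 (0.25). Its neighbour Fads2, the delta-6 desaturase 81.4 kb away, passed in none of the experiments and had values of 0.20 ± 0.28, -0.53 ± 0.28 and -0.17 ± 0.28; without DKO TAM replicate 1 the last was -0.79 (0.010).

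Elovl6, which lengthens palmitate to stearate, stood at 191.8 and 148.5 CPM in FF and 168.6 and 183.2 in KO livers, at 242.6 and 331.4 in p53KO and 134.5 and 92.8 in DKO livers, and at 152.4 and 162.0 in p53KO TAM and 89.2 and 74.7 in DKO TAM livers. FF and KO libraries overlapped, while DKO and DKO TAM libraries lay below their controls. Elovl6 fell in DKO (-1.34 ± 0.19, adjusted p = 4.7e-05, edgeR) and DKO TAM livers (-0.94 ± 0.19, 0.0040) and had a value of 0.05 ± 0.19 in KO livers (0.90). Elovl2 and Elovl5 elongate polyunsaturated chains. Elovl2 rose in DKO TAM livers (0.60 ± 0.14, 0.0086), from 509.5 and 577.5 to 892.2 and 755.8 CPM without overlap; the call was lost without p53KO TAM replicate 1 (0.10) or DKO TAM replicate 1 (0.064). Its other libraries stood at 710.2 and 587.2 CPM in FF, 763.3 and 774.9 in KO, 556.9 and 595.4 in p53KO and 533.8 and 476.4 in DKO livers. Elovl5 passed in no experiment. In DKO livers the values of Elovl2 and Elovl5 were -0.19 and -0.12 on the TMM scale and 0.58 and 0.65 with library totals alone.

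Of the 8 glycerolipid assembly genes, 1 fell in KO livers; 6 fell and 2 rose in DKO livers, and 2 fell and 2 rose in DKO TAM livers. Of all tested genes, 14.8%, 51.4% and 18.7% were called in these comparisons, so the KO share of 12.5% was near the background. Gpam, the mitochondrial glycerol-3-phosphate acyltransferase that starts triglyceride synthesis, stood at 286.7 and 266.2 CPM in FF and 170.9 and 175.1 in KO livers, at 226.4 and 255.5 in p53KO and 116.7 and 106.5 in DKO livers, and at 192.9 and 153.2 in p53KO TAM and 121.8 and 120.8 in DKO TAM livers. The groups did not overlap in any experiment. Gpam fell by 0.68 ± 0.13, 1.11 ± 0.13 and 0.51 ± 0.13 on the log2 scale in KO, DKO and DKO TAM livers (adjusted p = 0.0024, 3.3e-06 and 0.012, edgeR); the last call was lost without p53KO TAM replicate 1 (0.20) or DKO TAM replicate 2 (0.063). Dgat2, the acyltransferase of the final step that favours newly made fatty acids, stood at 254.7 and 295.0 CPM in FF and 216.3 and 221.1 in KO livers, at 291.6 and 299.7 in p53KO and 102.3 and 92.3 in DKO livers, and at 239.2 and 214.8 in p53KO TAM and 176.1 and 153.7 in DKO TAM livers. Deleted libraries were lower throughout, most in DKO livers. Dgat2 fell by 1.6 ± 0.13 in DKO (adjusted p = 5.2e-08, edgeR) and by 0.46 ± 0.13 in DKO TAM livers (0.019), and its KO value was -0.33 ± 0.13 (0.097). The DKO TAM call was lost without p53KO TAM replicate 1 (0.16) or DKO TAM replicate 2 (0.15) and with library totals alone (-0.11, 0.50).

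Lpin1 encodes lipin 1, a phosphatidate phosphatase that also acts as a coactivator and is induced by fasting. It stood at 125.6 and 197.1 CPM in FF and 185.2 and 212.0 in KO livers, at 1109.5 and 1871.5 in p53KO and 161.9 and 158.8 in DKO livers, and at 106.6 and 165.4 in p53KO TAM and 70.3 and 74.1 in DKO TAM livers. The p53KO libraries stood apart: the other 10 libraries ranged from 70.3 to 212.0 CPM. Lpin1 fell 9.29-fold in DKO against p53KO livers (-3.22 ± 0.31, adjusted p = 1.5e-05, edgeR), to a level within the range of FF livers. Its value was 0.30 ± 0.29 in KO (0.56) and -0.91 ± 0.29 in DKO TAM livers (0.059); the latter passed in 5 of 14 alternatives (0.0030 to 0.031), DESeq2 and limma-voom among them. Other fasting-linked genes of the p53KO libraries are given beside these values: Pck1, the gluconeogenic enzyme gene, stood at 3961.7 and 4693.4 CPM there against 801.8 to 3194.1 in the other 10, and Ppargc1a, its coactivator, at 78.0 and 79.6 against 22.5 to 61.1. Not every fasting gene was high there: Pdk4, which restrains glucose oxidation, stood at 10.6 and 7.72 CPM in p53KO livers against 7.72 to 137.4 over all 12 libraries. Whether feeding state at collection differed between groups was not tested.

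Lpin2 followed Lpin1 in its high p53KO level, with 277.9 and 407.8 CPM in FF and 409.8 and 533.8 in KO livers, 674.3 and 780.8 in p53KO and 504.2 and 472.1 in DKO livers, and 201.8 and 145.3 in p53KO TAM and 281.0 and 239.5 in DKO TAM livers. DKO libraries were below and DKO TAM libraries above their controls. Lpin2 fell in DKO livers on the TMM scale (-0.58 ± 0.20, adjusted p = 0.023, edgeR), and 0.19 was the value with library totals alone; the call was lost without p53KO replicate 2 (0.13), DKO replicate 2 (0.065) or DKO replicate 3 (0.11). Its values in KO and DKO TAM livers were 0.46 ± 0.20 (0.14) and 0.58 ± 0.20 (0.054), passing in KO livers in 3 of 14 alternatives (library totals alone, 0.012; the replicate block, 0.043; without FF replicate 2, 0.045) and in DKO TAM livers in 7 of 14 (0.0018 to 0.050), DESeq2 (0.038) and limma-voom (0.050) among them. The lysophosphatidate acyltransferase genes Agpat2 and Agpat3 had small values in DKO livers, -0.38 ± 0.12 (0.014) and -0.39 ± 0.13 (0.016) on the TMM scale but 0.39 and 0.38 with library totals alone, so their direction depends on the scaling; with upper quartile scaling neither passed (0.27 and 0.25), nor did Lpin2 (0.13). Agpat2 stood at 92.6 and 98.1 CPM in FF, 109.1 and 123 in KO, 80.9 and 86.9 in p53KO, 67 and 62.3 in DKO, 115.4 and 110 in p53KO TAM and 117.2 and 121.8 in DKO TAM livers. Agpat3 stood at 212.9 and 233.2 CPM in FF, 259.2 and 257.6 in KO, 227.9 and 228 in p53KO, 163.1 and 184.9 in DKO, 212.3 and 206.1 in p53KO TAM and 308 and 262.5 in DKO TAM livers. Neither gene's groups overlapped in any experiment, and only the DKO libraries lay below their controls. The Agpat2 call was lost without p53KO replicate 2 (0.065) or DKO replicate 3 (0.10), and the Agpat3 call without DKO replicate 2 (0.14). Agpat3 rose in DKO TAM livers (0.45 ± 0.13, 0.020), a call lost without p53KO TAM replicate 1 (0.094), p53KO TAM replicate 2 (0.12) or DKO TAM replicate 1 (0.15).

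Mogat1 and Dgat1 were the assembly genes that rose in DKO livers. Mogat1, a monoacylglycerol acyltransferase that is scarce in normal mouse liver, had 0 and 0 counts in FF, 1 and 1 in KO, 1 and 1 in p53KO, 35 and 45 in DKO, 0 and 1 in p53KO TAM and 8 and 7 in DKO TAM libraries. It was thus at or under 1 count in 8 libraries and clearly detected in 4. Its level was 17.9 times higher in DKO than in p53KO livers (95% exact interval 4.80 to 150.5, counting error only) and 9.94 times higher in DKO TAM than in p53KO TAM livers (1.53 to 418.4). The test passed in DKO (adjusted p = 1.3e-04, edgeR) and narrowly in DKO TAM livers (0.041), where it was lost without p53KO TAM replicate 1 (0.31), DKO TAM replicate 1 (0.096) or DKO TAM replicate 2 (0.11), and with DESeq2 (0.19). Dgat1, the other acyltransferase of the final step, was low throughout, at 6.99 to 14.7 CPM. It rose in DKO livers from 7.85 and 8.58 to 14.4 and 12.9 CPM without overlap (0.74 ± 0.21, 0.0067), a call lost without p53KO replicate 1 (0.063) or DKO replicate 2 (0.052). Dgat1 libraries stood at 9.72 and 10 CPM in FF, 14.7 and 11.9 in KO, 6.99 and 8.56 in p53KO TAM and 12.2 and 10.1 in DKO TAM livers. Its values in KO and DKO TAM livers were 0.44 ± 0.21 (0.19) and 0.54 ± 0.21 (0.088). Dgat1 and Dgat2, which carry out the same reaction, thus went opposite ways in DKO livers.

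Both transcription factor genes fell in DKO livers, where 25.7% of all tested genes fell. Srebf1 stood at 181.0 and 109.2 CPM in FF and 40.3 and 62.3 in KO livers, at 85.5 and 111.1 in p53KO and 34.1 and 32.3 in DKO livers, and at 129.1 and 114.6 in p53KO TAM and 42.3 and 36.4 in DKO TAM livers. All 6 deleted libraries lay below all 6 controls. Its log2 fold changes in KO, DKO and DKO TAM livers were -1.50 ± 0.26, -1.56 ± 0.26 and -1.63 ± 0.25 (adjusted p = 0.0033, 4.6e-04 and 0.0017, edgeR), and the KO call was lost when the 4 libraries compared were fitted alone (0.089). The counts do not separate SREBP-1a from SREBP-1c transcripts, and Srebf1 shares 107 exonic bases with Rai1 on the opposite strand. Mlxipl stood at 296.5 and 283.8 CPM in FF and 382.5 and 351.0 in KO livers, at 253.0 and 211.1 in p53KO and 137.5 and 103.0 in DKO livers, and at 181.2 and 232.8 in p53KO TAM and 214.3 and 129.3 in DKO TAM livers. KO libraries were above and DKO libraries below their controls, while the TAM groups overlapped. Mlxipl fell in DKO livers (-0.95 ± 0.22, 0.0030), with -0.18 as its value with library totals alone (0.47), and stood at 0.34 ± 0.22 (0.34) in KO and -0.27 ± 0.22 (0.44) in DKO TAM livers; without DKO TAM replicate 1 the last value passed (-0.68, 0.031).

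Droplet proteins and lipases moved in both directions. Of 9 tested, 1 rose and 1 fell in KO livers, 3 rose and 1 fell in DKO livers, and 2 rose and 1 fell in DKO TAM livers, with medians of 0.05, 0.78 and 0.26. Called were 22.2%, 44.4% and 33.3% of them, against 14.8%, 51.4% and 18.7% of all tested genes; in DKO livers 33.3% rose against 25.7% and 11.1% fell against 25.7%. Their summed level was higher in DKO (565.0 to 792.9 CPM) than in p53KO livers (447.7 to 484.8).

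Cidec encodes the droplet fusion protein known as FSP27, which is low in lean liver and high in steatotic liver. It stood at 2.26 and 2.59 CPM in FF and 2.54 and 2.50 in KO livers, at 4.44 and 2.14 in p53KO and 20.2 and 49.0 in DKO livers, and at 2.04 and 2.30 in p53KO TAM and 14.0 and 14.4 in DKO TAM livers. The DKO and DKO TAM libraries stood apart from the other 8, and the 2 DKO libraries differed from each other. Cidec rose 10.2-fold in DKO (3.34 ± 0.44, adjusted p = 9.5e-05, edgeR) and 6.55-fold in DKO TAM livers (2.71 ± 0.51, 0.0043), with a value of 0.04 ± 0.70 in KO livers (0.98). The DKO TAM call was lost without p53KO TAM replicate 1 (0.070). Its relative Cidea, typical of brown fat and fatty liver, had 1 and 4 counts in DKO and 0 and 1 in DKO TAM libraries and none elsewhere, too few to test.

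Cideb, the CIDE protein of hepatocytes that takes part in lipidation of very low density lipoprotein, went down. It stood at 33.2 and 36.3 CPM in FF and 17.6 and 21.0 in KO livers, at 40.6 and 36.0 in p53KO and 11.1 and 9.5 in DKO livers, and at 30.3 and 32.4 in p53KO TAM and 25.3 and 25.5 in DKO TAM livers. Deleted libraries were lower without overlap in each experiment. Cideb fell in KO (-0.85 ± 0.16, adjusted p = 0.0017, edgeR) and DKO livers (-1.90 ± 0.16, 5.9e-08), and its DKO TAM value was -0.30 ± 0.15 (0.18). The value is uncertain because 855 of the 1173 exonic bases of Cideb are shared with Nop9 on the opposite strand and the counting took no account of strand.

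Plin2, the perilipin that coats hepatocyte droplets and rises with their amount, stood at 213.5 and 199.8 CPM in FF and 234.8 and 194.2 in KO livers, at 236.4 and 221.4 in p53KO and 322.5 and 465.2 in DKO livers, and at 208.8 and 164.5 in p53KO TAM and 154.7 and 170.7 in DKO TAM livers. Only the 2 DKO libraries lay clear of the rest. Plin2 rose there (0.78 ± 0.17, adjusted p = 9.5e-04, edgeR) and had values of 0.05 ± 0.17 in KO and -0.20 ± 0.17 in DKO TAM livers. Plin5, the perilipin that tethers droplets to mitochondria, stood at 19.0 and 24.2 CPM in FF and 31.7 and 35 in KO livers, at 26.6 and 30.7 in p53KO and 48.3 and 70.3 in DKO livers, and at 45.2 and 40.9 in p53KO TAM and 41.4 and 80.7 in DKO TAM livers. It rose in DKO livers (1.05 ± 0.30, 0.015), a call lost without p53KO replicate 1 (0.13), p53KO replicate 2 (0.066) or DKO replicate 3 (0.088). Its KO and DKO TAM values were 0.62 ± 0.33 (0.26) and 0.50 ± 0.29 (0.28), the latter passing without DKO TAM replicate 1 (0.90, 0.0064). Plin4, 1.80 kb from Plin5 on chromosome 17, passed in no experiment (1.02 ± 0.70, 0.99 ± 0.53 and 0.32 ± 0.56); its DKO value passed in 4 of 14 alternatives: library totals alone (0.017), limma-voom (0.026), the replicate block (0.018) and without p53KO replicate 2 (2.0, 0.014).

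Among the lipases and their partners, Pnpla2 encodes ATGL, which starts triglyceride breakdown. It stood at 80.0 and 88.8 CPM in FF and 81.3 and 91.3 in KO livers, at 124.8 and 101.0 in p53KO and 85.9 and 118.4 in DKO livers, and at 53.5 and 58.0 in p53KO TAM and 106.1 and 96.1 in DKO TAM livers. The TAM groups alone were separate. Pnpla2 rose in DKO TAM livers (0.86 ± 0.16, adjusted p = 0.0013, edgeR), and its values in KO and DKO livers were 0.03 ± 0.16 and -0.15 ± 0.15, the latter 0.62 with library totals alone. G0s2, which inhibits ATGL, ranged from 13.3 to 32.3 CPM and passed in none. Pnpla3, a lipase-like protein of the droplet surface induced by SREBP-1c, was scarce at 0.751 to 3.39 CPM. It fell in DKO TAM livers from 2.48 and 2.71 to 1.04 and 0.751 CPM (-1.49 ± 0.44, 0.026), a call lost when any of those 4 libraries was left out (0.061 to 0.14) and with DESeq2 (0.13), and stood at 0.904 and 1.21 CPM in FF, 3.39 and 2.31 in KO, 1.02 and 0.858 in p53KO and 1.61 and 1.97 in DKO livers, with values of 1.40 ± 0.47 (0.056) in KO and 0.90 ± 0.47 (0.12) in DKO livers. Fitm2, an endoplasmic reticulum protein that helps droplets bud, rose in KO livers from 12.2 and 14.3 to 24.1 and 24.6 CPM (0.87 ± 0.22, 0.014); leaving out any of those libraries took the call away (0.051 to 0.10). Fitm2 libraries stood at 14.9 and 22.3 CPM in p53KO, 26.3 and 20.5 in DKO, 14.6 and 15.7 in p53KO TAM and 20.6 and 15.4 in DKO TAM livers, where groups overlapped. In DKO livers its log2 fold change was 0.35 ± 0.20 (0.17), passing without p53KO replicate 2 (0.65, 0.037) and with scaling by library totals alone (1.6e-04) or the upper quartile (0.030).

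**Figure D3:**
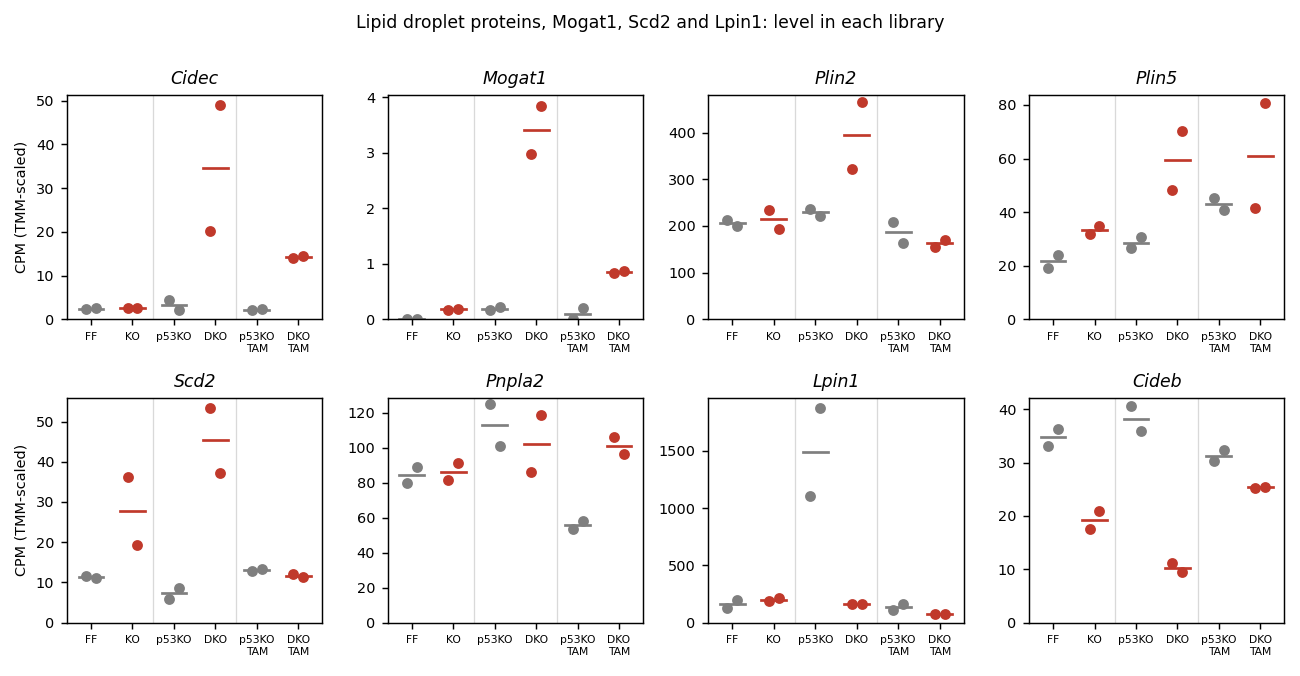
TMM-scaled CPM in each of the 12 libraries (points) and group means (bars) for 5 droplet genes, Mogat1, Scd2 and Lpin1, with controls in grey and deleted groups in red on linear axes that start at 0. Cidec stands at 14.0 to 49.0 in the DKO and DKO TAM libraries and at 2.04 to 4.44 elsewhere, and Lpin1 is high in the p53KO libraries alone.

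Whether the effects differed between experiments was tested as a difference of log2 fold changes. The DKO effect differed from the KO effect for 18 of 34 members, 15 lower and 3 higher, where 22.7% of all tested genes differed, 12.9% lower and 9.75% higher. Members with a more negative effect in DKO livers included Thrsp (-2.42 ± 0.43, adjusted p = 0.0039, edgeR), Scd1 (-2.45 ± 0.54, 0.013), Acss2 (-1.50 ± 0.29, 0.0027), Elovl6 (-1.38 ± 0.27, 0.0025), Acly (-0.96 ± 0.20, 0.0025) and Lpin1 (-3.51 ± 0.41, 4.2e-04). The last difference includes the high Lpin1 level of the p53KO controls. Cidec (3.30 ± 0.87, 0.020), Scd2 (1.35 ± 0.41, 0.032) and Plin2 (0.73 ± 0.24, 0.036) had a more positive effect in DKO livers. These 3 calls were fragile: Cidec lost its call without p53KO replicate 2 (0.062) or any FF or KO library (0.066 to 0.12), Scd2 without p53KO replicate 1, DKO replicate 2, either FF library or KO replicate 2 (0.051 to 0.16), and Plin2 without either p53KO or FF library, DKO replicate 3 or KO replicate 2 (0.063 to 0.22). The Scd1 call was lost without either DKO library (0.053 and 0.059). For Acacb and Srebf1, the differences were -0.03 ± 0.22 (0.95) and -0.07 ± 0.36 (0.92). The 2 experiments also differed in age by 1 week, and p53 status and age cannot be told apart.

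The DKO effect differed from the DKO TAM effect for 16 members, 13 lower and 3 higher, where 27.6% of all tested genes differed, 14.2% lower and 13.4% higher. Acacb (-0.96 ± 0.21, adjusted p = 0.0034, edgeR), Acss2 (-1.49 ± 0.30, 0.0025) and Dgat2 (-1.14 ± 0.18, 2.7e-04) had a more negative effect in DKO livers. Mean Acss2 levels were 17.5 CPM in DKO and 19 in DKO TAM livers, against 131.9 in p53KO and 50.8 in p53KO TAM livers. For Acacb they were 16.5 and 20 CPM, against 110.9 and 68.8. The differences for Acss2 and Acacb thus include the higher levels of the p53KO controls. Mean Dgat2 levels were 97.3 CPM in DKO and 164.9 in DKO TAM livers, against 295.6 and 227 in their controls. Cideb, called in DKO but not in DKO TAM livers, had a difference of -1.6 ± 0.22 (6.9e-05). Scd1 also had a more negative effect in DKO livers (-1.71 ± 0.54, adjusted p = 0.046, edgeR). That call was lost without p53KO replicate 2, DKO replicate 2, DKO replicate 3, p53KO TAM replicate 2 or DKO TAM replicate 1. Mean Scd1 levels were 293.9 CPM in DKO and 356.7 in DKO TAM livers, and 6482.5 in p53KO and 2409.9 in p53KO TAM livers. Scd2 (2.81 ± 0.41, 2.7e-04), Pnpla3 (2.39 ± 0.64, 0.011, but 0.061 with DESeq2) and Plin2 (0.98 ± 0.24, 0.0058) were the 3 with a more positive effect in DKO livers. For Thrsp the difference was -1.31 ± 0.43 (0.051), passing with DESeq2 (0.0039), with limma-voom (0.025) and without DKO replicate 2 (0.045) or DKO TAM replicate 2 (3.0e-04), for Srebf1 0.07 ± 0.36 (0.92) and for Cidec 0.63 ± 0.76 (0.58). Both sets of differences share the DKO and p53KO libraries. Between the DKO and DKO TAM experiments, duration of loss, Cre line and tamoxifen differed together and cannot be told apart. The age of the TAM livers is not in the labels.

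**Figure D4:**
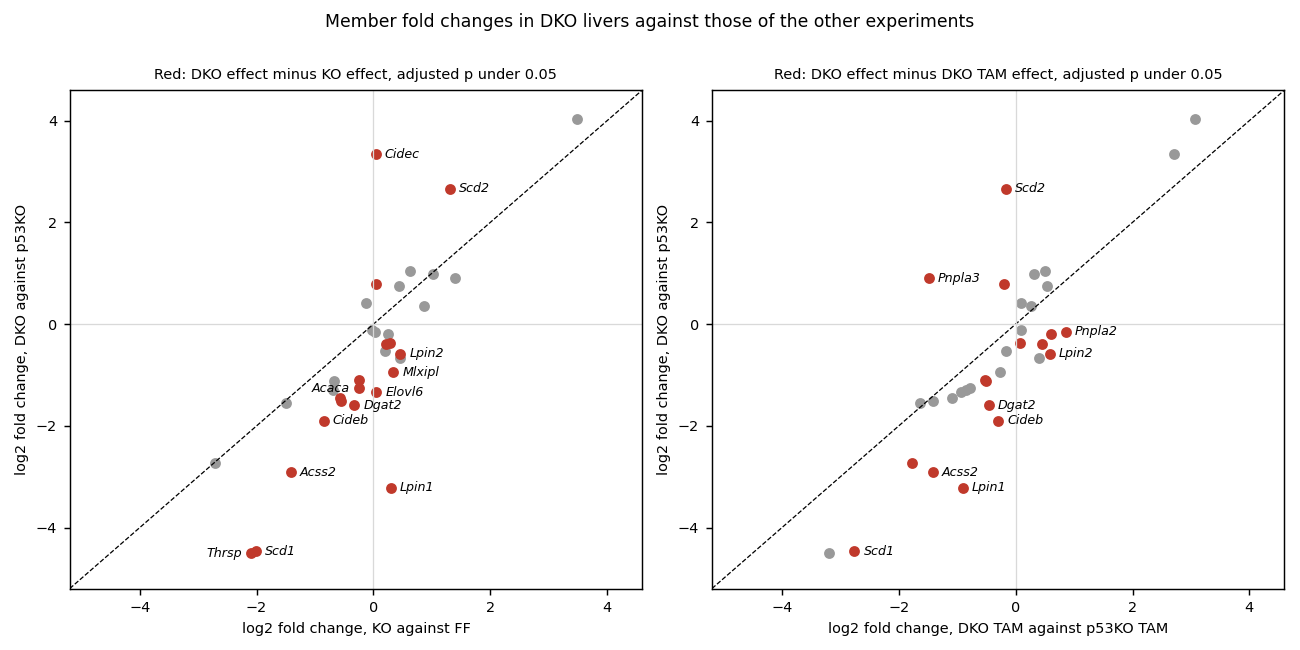
Log2 fold change of each member in DKO against p53KO livers (vertical axis) plotted against that in KO against FF livers (left) or in DKO TAM against p53KO TAM livers (right); red points differed with an adjusted p under 0.05, named where the difference was at least 2-fold, and the dashed line marks equality. Lpin1, Scd1 and Acss2 lie below the line in both panels and Scd2 above it, and Cidec is named in the left panel only.

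Within a library, levels of different genes were compared per kilobase of exon. Scd1 led the members in FF (1307.6 CPM per kilobase), KO (323.7), p53KO (1340.2) and p53KO TAM livers (498.2). In DKO livers Plin2 led with 208.7 and Scd1 was sixth of 35 with 60.8, and in DKO TAM livers Elovl2 led with 214.7 and Scd1 stood seventh with 73.8. Thrsp went from second place in p53KO livers (271.7) to place 24 in DKO livers (11.9). Fads2 stood in places 2 to 4 in every group, at 231.7 in FF, 167.6 in DKO and 131.2 in DKO TAM livers. Cidea, Mogat1 and Pnpla3 took the lowest 3 places in every group except DKO, where Acacb (1.95) stood below Mogat1 (2.83).

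Genes outside the list but in the same pathways were read as well. Of 20 other tested genes of fatty acid synthesis and elongation, 3 fell and 3 rose in KO livers. In DKO livers 12 fell and 5 rose, and in DKO TAM livers 4 fell and 2 rose. The medians were 0.11, -0.61 and -0.12. Called were 30.0%, 85.0% and 30.0% of them, against 14.8%, 51.4% and 18.7% of all tested genes. G6pdx, the first enzyme of the NADPH-yielding pentose phosphate pathway, rose in KO (2.38 ± 0.19, adjusted p = 5.6e-07, edgeR) and DKO livers (2.49 ± 0.19, 3.1e-08) and stood at 0.53 ± 0.19 in DKO TAM livers (0.057). Tecr, the reductase of the elongation cycle, fell in DKO (-1.46 ± 0.15) and DKO TAM livers (-0.91 ± 0.15). Of 15 other glycerolipid genes, 1 fell and 1 rose in KO, 4 fell and 5 rose in DKO and 1 fell and 3 rose in DKO TAM livers. Agpat6, which encodes the glycerol-3-phosphate acyltransferase GPAT4 of the endoplasmic reticulum, fell each time (-0.58 ± 0.15, -1.23 ± 0.15 and -0.56 ± 0.15), as did Gpam; its KO call was lost without FF replicate 2, KO replicate 1 or KO replicate 2 (0.052 to 0.29) and its DKO TAM call without either p53KO TAM library or DKO TAM replicate 2 (0.069 to 0.12). Of 14 other tested genes of droplets and lipolysis, 1 fell and 3 rose in KO livers. In DKO livers 6 fell and 2 rose, and in DKO TAM livers none fell and 2 rose. The shares called were 28.6%, 57.1% and 14.3%, the DKO and DKO TAM shares near those of all tested genes. Abhd5, the coactivator of ATGL, rose in KO livers (0.86 ± 0.14, 6.6e-04), and Bscl2, the seipin gene of droplet formation, fell in DKO livers (-1.12 ± 0.16, 3.1e-05; 0.068 with library totals alone).

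Of 17 regulators of lipogenesis, 6 fell in KO, 8 fell and 2 rose in DKO and 3 fell in DKO TAM livers. Called were 35.3%, 58.8% and 17.6% of them, against 14.8%, 51.4% and 18.7% of all tested genes. The DKO and DKO TAM shares were thus near the background. Scap, the escort that carries SREBP proteins to the Golgi for cleavage, fell in each experiment, from 134.0 and 125.0 CPM in FF to 86.6 and 84.6 in KO livers, from 119.7 and 136.6 in p53KO to 41.2 and 41.9 in DKO livers, and from 72.6 and 76.6 in p53KO TAM to 59.4 and 46.7 in DKO TAM livers (-0.60 ± 0.13, -1.62 ± 0.13 and -0.49 ± 0.13; adjusted p = 0.0055, 5.6e-08 and 0.017, edgeR). The last call was lost without either p53KO TAM library or DKO TAM replicate 2 (0.067 to 0.19). Its opponent Insig2, which retains that complex in the endoplasmic reticulum, stood at 521.7 and 455.8 CPM in p53KO TAM livers, above the 126.2 to 241.0 of the other 10 libraries. It fell in DKO TAM (-1.82 ± 0.16, 1.1e-06) and rose in DKO livers (0.54 ± 0.16, 0.0079), a call lost without p53KO replicate 1 (0.11) or DKO replicate 3 (0.13).

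Genes of fasting and of the circadian clock were read beside the members. Of 9 fasting response genes, 3 fell in KO, 6 fell and 2 rose in DKO and 2 fell and 1 rose in DKO TAM livers, so 33.3%, 88.9% and 33.3% were called against 14.8%, 51.4% and 18.7% of all tested genes; Pck1 fell each time (-0.91 ± 0.25, -2.38 ± 0.26 and -1.55 ± 0.25), in KO livers not without FF replicate 2 (0.38), KO replicate 1 (0.16) or KO replicate 2 (0.086). Of 11 circadian clock genes, 2 fell and 2 rose in KO, 5 fell and 2 rose in DKO and 2 fell in DKO TAM livers; 36.4%, 63.6% and 18.2% were thus called, the last at the background. Arntl, which peaks at a set time of day, stood at 5.58 to 11.7 CPM in FF and p53KO livers, at 35.9 and 38.6 in KO, 19.1 and 23.5 in DKO, 47.8 and 49.7 in p53KO TAM and 22.5 and 37.8 in DKO TAM livers. It rose in KO and DKO livers (2.01 ± 0.26 and 1.78 ± 0.28) and fell in DKO TAM livers (-0.70 ± 0.22; lost without either p53KO TAM library or DKO TAM replicate 1, 0.13 to 0.28). Many members, Thrsp and Srebf1 among them, are known to follow feeding and time of day; the time of collection is not in the labels, and the part of feeding or clock in these results was not tested.

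Markers of other cells were read because some members, such as Plin2, Scd2 and Fads1, are not limited to hepatocytes. All 8 macrophage markers and all 8 stellate and fibroblast markers rose in DKO livers, with medians of 1.42 and 1.59. Of 6 tested cholangiocyte markers 5 did (median 2.14). Of all tested genes, 6.92% rose in KO, 25.7% in DKO and 8.61% in DKO TAM livers. The summed level of the macrophage markers was 387.8 to 425.8 CPM in p53KO and 903.2 to 972.2 in DKO livers, and that of the stellate and fibroblast markers 264.5 to 267.2 and 1133.7 to 1231.1. In KO livers 1 macrophage and 1 stellate marker rose and no cholangiocyte marker did; in DKO TAM livers 1 macrophage and 1 cholangiocyte marker rose and 1 stellate marker fell. Cidec, which rose in DKO TAM livers too, is also a marker of adipocytes. Of 7 other adipocyte markers, Lep and Retn had no count in any library, 2 passed the filter and were tested, and neither was called; the 7 summed to 10.2 to 14.4 CPM in DKO TAM and 7.52 to 12.7 in p53KO TAM livers, and to 11 to 13.7 in DKO and 11.6 to 14.9 in p53KO livers. The part of adipocytes in the Cidec values was not tested. Endothelial markers, 6 in number, rose in 1 case in KO, rose in 2 and fell in 2 in DKO and fell in 3 in DKO TAM livers, and of 4 tested lymphocyte markers 1 rose, in DKO livers. The part of other cells in the rise of Plin2 and Scd2 was not tested.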

How the data were processed

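Total RNA of mouse liver was sequenced as 12 libraries made with the SMARTer Stranded Total RNA kit, per the labels' protocols. The deposited values are raw counts of reads per gene for 23420 genes. Reads were handled with CASAVA 1.82, HISAT2 and featureCounts on mm10 (GRCm38), per the submitters' processing notes. The headers of the 4 files from 7-week livers name featureCounts 1.6.4 with exons counted by gene and no strand, pair or multiple-mapping option; the other 8 files hold no program line. Overlapping genes and near-identical copies can therefore share or lose reads.

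Libraries were grouped by title and description, 2 per group, and none was left out; DKO replicates are numbered 2 and 3 as in their titles. The 2 libraries of each group differed by more than sampling noise (chi-square per degree of freedom of 6.045 to 17.013). The test was edgeR's quasi-likelihood F test (edgeR 4.0.16 under R 4.3.3). Genes were kept by filterByExpr (minimum count 10), which left 13693 genes with 99.9% of the counts, and libraries were scaled by TMM. All 12 libraries entered a single model with a mean per group, which left 6 residual degrees of freedom and a common BCV (biological coefficient of variation) of 0.124; p-values were adjusted by Benjamini-Hochberg over those genes. Adjusted p-values in the text come from this test unless another is named, and those for a left-out library from the same test on the other libraries. Each SE was derived from the log2 fold change and its F statistic. By library totals, without TMM scaling, a count of 3 corresponds to 0.342 to 0.607 CPM. Intervals for Mogat1 are exact and cover counting error only.

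On simulated data with 200 changed genes at these depths, 60.0%, 60.0% and 61.0% of 2-fold and 91.0%, 86.0% and 88.0% of 4-fold changes were recovered in KO, DKO and DKO TAM comparisons, with 10, 9 and 8 false calls among 13268, 13249 and 13269 genes. That simulation had no shift in composition and far fewer changed genes than the 7041 called in DKO livers. Its shares recovered may therefore differ from those in the data.

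The 35 members, the gene lists, the tests and the alternatives were chosen with earlier results of these data known. Any member could be named; values in every library are given for members called in any of the 3 comparisons, up to 8 per role by smallest p, and from each other list up to 4 genes with the smallest p could be named, with Polr2m and markers as checks. Gene locations, exon lengths and overlaps come from the annotation given with the deposited counts. Promoters come from RefSeq on GRCm38.p6, with windows for 29 members. The alternatives tried were scaling by RLE, by the upper quartile or by library totals, 2 other filters, DESeq2 1.42.0, limma-voom (limma 3.58.1), only the libraries compared, a replicate block, an adjusted p under 0.01 and each library left out.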

Additional observations from a re-analysis of the deposited data

Results flagged for a closer look

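These values are differences between log2 fold changes, each with an adjusted p under 0.05 in edgeR's quasi-likelihood test of the difference itself. They were set apart because the effect of the deletion differed between experiments.

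The DKO effect minus the KO effect was -0.96 for Acly, -1.50 for Acss2, -0.85 for Slc25a1, -1.02 for Acaca and -2.42 for Thrsp among the synthesis genes, so 5 of these 8 genes had a more negative value without p53. Among elongation and desaturation genes it was -2.45 for Scd1, -1.38 for Elovl6 and -0.87 for Fads1, and 1.35 for Scd2. Among assembly genes it was -3.51 for Lpin1, -1.27 for Dgat2, -1.03 for Lpin2, -0.66 for Agpat2 and -0.60 for Agpat3, and for the transcription factor gene Mlxipl it was -1.29. Among droplet genes it was 3.30 for Cidec, 0.73 for Plin2 and -1.04 for Cideb. The Fads1, Agpat2, Agpat3, Lpin2 and Mlxipl calls were each lost without at least 1 library: Fads1 without p53KO replicate 2, DKO replicate 3, FF replicate 2 or KO replicate 1 (adjusted p = 0.055 to 0.084), Agpat2 without DKO replicate 3 or KO replicate 2 (0.052 and 0.064), Agpat3 without DKO replicate 2, FF replicate 1 or KO replicate 2 (0.070 to 0.097), Lpin2 without p53KO replicate 2, DKO replicate 3, FF replicate 1 or KO replicate 2 (0.059 to 0.080), and Mlxipl without p53KO replicate 1 (0.053).

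The DKO effect minus the DKO TAM effect was -1.49 for Acss2, -0.58 for Slc25a1, -0.96 for Acacb, -1.71 for Scd1 and 2.81 for Scd2. It was -0.79 for Elovl2, -0.60 for Gpam, -0.46 for Agpat2, -0.84 for Agpat3, -2.31 for Lpin1, -1.16 for Lpin2 and -1.14 for Dgat2. Among droplet genes it was -1.01 for Pnpla2, 2.39 for Pnpla3, 0.98 for Plin2 and -1.60 for Cideb. The Agpat2 call was lost without any 1 of the 8 libraries (adjusted p = 0.052 to 0.16), the Slc25a1 call without any 1 of 7, all but p53KO TAM replicate 1 (0.057 to 0.17), the Gpam call without p53KO replicate 2, DKO replicate 3, p53KO TAM replicate 2 or DKO TAM replicate 1 (0.051 to 0.12), and the Elovl2 call without p53KO TAM replicate 1 (0.051).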

How the results depend on the processing

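Every called member kept its direction in all alternatives run, except with library totals alone in DKO livers, where Agpat2 (0.39), Agpat3 (0.38) and Lpin2 (0.19) turned positive, as did Ppargc1a (0.40), Polr2m (0.07) and 5 members not called with TMM, Elovl2 (0.58), Elovl5 (0.65), Pnpla2 (0.62), Me1 (0.10) and Fads2 (0.24). Library totals alone also gave 8, 15 and 10 members higher in KO, DKO and DKO TAM livers, 3294 and 4932 of all genes called in KO and DKO TAM livers, and 9 members for each of the 2 differences between experiments; by construction this setting leaves the shift in composition in place. With an adjusted p under 0.01, 1 and 3 members were higher in KO and DKO TAM livers, 9 differed between DKO and KO, and 960 (KO), 1201 (DKO TAM), 1545 (DKO minus KO) and 2069 (DKO minus DKO TAM) of all genes were called. Leaving out 1 library gave 0 to 1 members higher and 1087 to 1285 genes called in KO livers, 2 to 4 and 1188 to 1952 in DKO TAM livers, and 1970 to 2751 genes for DKO minus KO. A call that held in every alternative was found for 5 of 11 called members in KO, 17 of 25 in DKO and 10 of 18 in DKO TAM livers, and for 5 of 18 and 8 of 16 of the differences. With 2 libraries per group, even 2-fold changes were often missed in the simulation, and smaller ones were not simulated.

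The correlations of same-numbered libraries' deviations were 0.11 (KO and FF), -0.07 (DKO and p53KO) and -0.01 (TAM groups) over 13693 genes. Only that of KO and FF was over 0.1, and the numbers were not taken as pairs. With a replicate block, 3 members were higher and 9 lower in KO, 7 and 19 in DKO, and 5 and 14 in DKO TAM livers, and 18 and 14 differed between experiments.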
